A study of Caenorhabditis elegans with 2 samples.

Results

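The genes of the small nuclear RNAs (snRNAs) of Caenorhabditis elegans were read for peaks of AMA-1, the largest protein of RNA polymerase II. Members were the genes of biotype snRNA in the Ensembl release 115 annotation of genome build WBcel235 (ce11), without the spliced leader RNA genes, whose symbols begin with sls-. This left 99 genes of 46926 annotated genes, and of 129 genes of the biotype. ChIP-seq, the sequencing of DNA pulled down with an antibody, here to AMA-1, had been done on whole young adults of the wild-type strain N2, with males and females pooled and no treatment named in the labels. The labels give 1 group with 2 biological replicates, so no conditions could be compared and no test was made. The deposited data were 4 lists of peaks. The relaxed lists of replicate 1 (27847 peaks), replicate 2 (30000) and the pooled reads (30000) reach into background, with −log10 q-values down to 0.550, 0.706 and 0.639. The optimal list held the 1103 peaks kept by the irreproducible discovery rate procedure, which were the strongest of the pooled list. A peak's summit is its highest point, and it was placed at a gene when it lay in the gene or within 100 bp of it. The signal value is the peak score deposited by the authors; its scale differs between lists, so ranks (1 the strongest) were given within each list. The number of reads behind the lists is unknown.

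The spliceosome removes introns with 5 small RNAs. U1 pairs with the 5′ splice site, U2 with the branch point, and U4, U5 and U6 join as one particle, in which U4 holds U6 until the catalytic centre forms. In animals RNA polymerase II makes U1, U2, U4 and U5 RNA from short promoters whose proximal sequence element is bound by the snRNA activating protein complex, and the Integrator complex cleaves the transcripts past the 3′ end of the mature RNA. U6 RNA is made by RNA polymerase III from promoters that also hold a TATA sequence. SmY RNAs are nematode RNAs bound by Sm proteins and linked to trans-splicing. The U1 genes sup-6 and sup-39 are known from mutations that suppress splice site defects.

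The annotation names no type except for the 10 smy genes, so the others were typed by short words in their sequence or by identity to a gene so typed. This gave 13 U1, 20 U2, 5 U4, 12 U5 and 23 U6 genes, and 16 genes stayed untyped, among them mir-1831, a gene of 22 bases inside sup-39 that the annotation lists as snRNA. Identity between pairs of 1 type went down to 57.3% in U2 and 68.5% in U6 genes, with medians of 98.4% and 99.0%. The types thus name sequence matches, and diverged copies were not set apart. The U1 genes (156 to 170 bases) lay mostly on chromosome V, with 9 of 13, and 11 of 12 U5 genes lay on chromosome IV. The 99 genes held 74 distinct sequences, since 32 of them were identical to at least 1 other member. The largest groups were 14 identical U6 genes, 6 of them side by side in the protein-coding gene mam-3, and 7 identical U2 genes. A protein-coding gene overlapped 60 members, and 48 of these lay in introns of every such gene. Because Ensembl gives identical copies the same symbol, members are called here by their RefSeq locus names, with WormBase identifiers where values are given.

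An optimal summit lay within 100 bp of 8 of the 99 members (8.08%) and of 1.55% of all annotated genes. The share was 8.96% for small nucleolar RNA genes, 3.83% for microRNA genes and 0.946% for tRNA genes, whose median lengths (130, 95 and 72 bp) bracket the 121 bp of the members. In the pooled relaxed list 22 members had a summit (22.2%), close to the 19.6% of all genes and below the 36.1% of small nucleolar RNA genes, with 24.9% of microRNA and 18.8% of tRNA genes. In both replicate lists 13 members did (13.1%), and the share over all genes was also 13.1%. The shares of the pooled list and of both replicates together were thus near those of all genes. The spliced leader genes that were left out showed both extremes, with 12 of 18 SL2 RNA genes and 0 of 12 SL1 RNA genes in the optimal list.

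By type, optimal summits lay at 3 of 13 U1 genes, 2 of 12 U5 genes, 1 of 5 U4 genes, 1 of 20 U2 genes and 1 of 23 U6 genes, and at 0 of 10 SmY and 0 of 16 untyped genes. Pooled summits lay at 7 U1, 6 U2, 5 U5, 2 U6, 1 U4 and 1 untyped gene, and at no SmY gene. The replicates were unequal. Replicate 1 had a summit at 39 members, 39.4% against 21.9% of all genes, and replicate 2 at 16 members, 16.2% against 18.8%. Of these, 26 members (26.3%) had one in replicate 1 and not in replicate 2, against 8.81% of all genes, and 3 (3.03%) the other way round, against 5.74%. All 13 U1 genes had a summit in replicate 1, and 5 of them in replicate 2. For U5 genes the counts were 9 of 12 and 4 of 12. The U1 genes T27E4.12 and T27E4.22 share 1 replicate 1 summit. Those of F40G12.13, F40G12.14 and F08H9.11 lay inside the gene, where 0%, 1.54% and 2.31% of 36-base stretches occur once in the genome. Reads of that length there mostly cannot be assigned to 1 gene. Most replicate 1 summits inside members lay in sequence that is not fully unique, as described below. No list held a summit at 57 members (57.6%, against 71.8% of all genes), among them 20 of 23 U6 genes and 8 of 10 SmY genes.

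**Figure D1:**
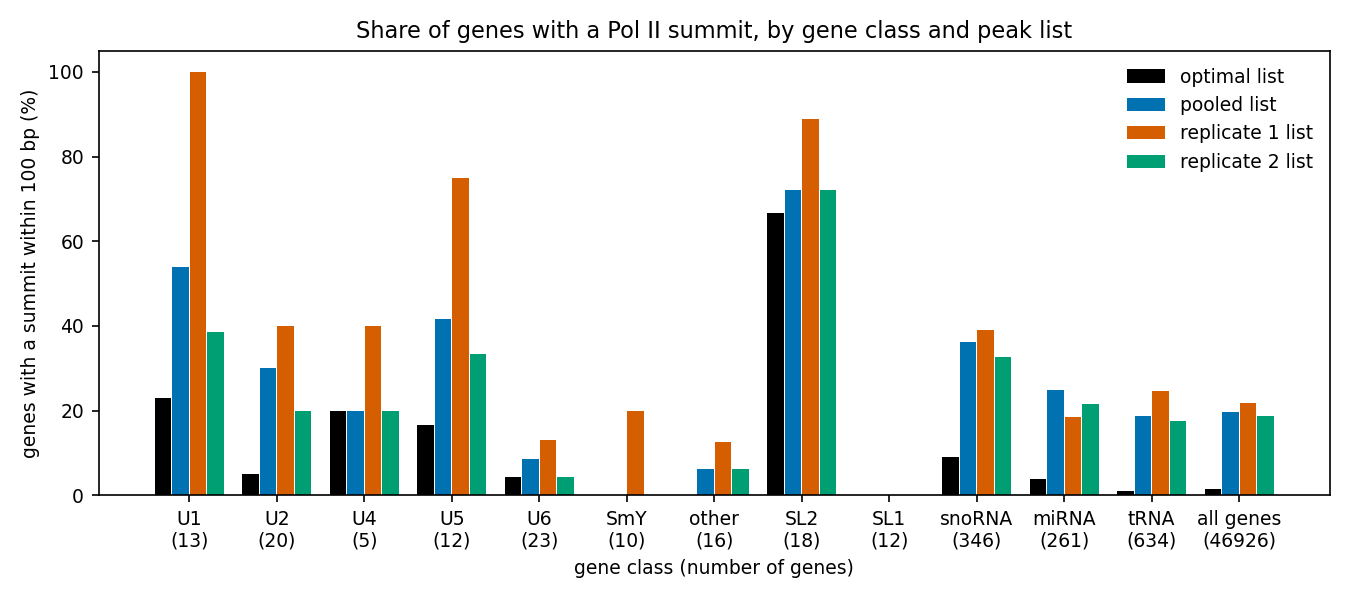
Share of genes (percent, from 0) with a summit within 100 bp in each of the 4 peak lists, for the snRNA types, the SL RNA genes left out, other short RNA classes and all annotated genes, with the number of genes below each class. U1 and U5 genes stand above all genes in every list, and SmY genes have no bar outside replicate 1. Replicate 1 reaches 100% of U1 genes, some of them through summits in sequence that also occurs elsewhere in the genome.

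The U1 genes come first, since they held the strongest summit and the most members with an optimal one. The 3 U1 genes with an optimal summit are shown 5′ to 3′ from their annotated start to 80 bases past their annotated 3′ end on ce11. Capitals mark the U1 word ACTTACCTG, which pairs with 5′ splice sites, and the base of the strongest optimal summit. sup-6 is shown from chrII:12944723-12944967, sup-39 from chrII:6968314-6968558 and T08G5.11 from chrV:14028391-14028635, all on the minus strand.
sup-6: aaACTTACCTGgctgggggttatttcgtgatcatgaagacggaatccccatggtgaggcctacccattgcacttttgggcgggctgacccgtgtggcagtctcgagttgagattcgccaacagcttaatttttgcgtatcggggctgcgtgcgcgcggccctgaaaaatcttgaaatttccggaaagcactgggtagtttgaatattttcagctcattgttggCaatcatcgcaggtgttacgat
sup-39: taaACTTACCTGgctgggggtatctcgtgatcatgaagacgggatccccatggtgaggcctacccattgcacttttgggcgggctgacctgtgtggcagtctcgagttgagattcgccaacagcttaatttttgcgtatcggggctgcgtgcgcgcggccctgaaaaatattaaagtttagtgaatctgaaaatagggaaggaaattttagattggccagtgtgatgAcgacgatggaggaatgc
T08G5.11: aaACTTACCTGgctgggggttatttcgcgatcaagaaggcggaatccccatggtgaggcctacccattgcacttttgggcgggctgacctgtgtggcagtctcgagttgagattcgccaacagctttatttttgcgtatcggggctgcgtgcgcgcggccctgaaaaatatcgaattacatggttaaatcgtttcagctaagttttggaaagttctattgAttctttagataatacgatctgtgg
The gene sequences of sup-6 and sup-39 differ by 5 edits (97.0% identity), sup-6 and T08G5.11 also by 5, and sup-39 and T08G5.11 by 8. In each line the marked summit base lies outside the RNA, in the sequence past the 3′ end where the genes no longer match.

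At sup-6 (WBGene00006315, chromosome II, 12944803 to 12944967, minus strand) the strongest summit had a signal value of 330.5 in the optimal and pooled lists, 115.9 in replicate 1 and 224.3 in replicate 2. It ranked 5 in all 4 lists, the highest of any member in each. The summit lay 59 bp past the 3′ end in the pooled list, 20 bp past it in replicate 1 and 70 bp past it in replicate 2. A further summit lay at the other end of the gene, 19 bp from the 5′ end and inside the gene, with a signal value of 110.4 (rank 87). Its counterparts ranked 705 in replicate 1, at -20 bp, and 159 in replicate 2, at 34 bp. Summits thus lay near both ends of sup-6 in every list, the stronger one on the 3′ side. Their optimal peaks are not separate: they run from 12944549 to 12944972 and to 12945011, and each covers the whole gene. sup-6 lies in an intron of F58G1.7 (WBGene00010269, 12943849 to 12948258), a protein-coding gene on the same strand, and the stronger summit falls in coding sequence of that gene. The stronger summit therefore cannot be given to sup-6 alone. The 2 optimal and 2 pooled summits in F58G1.7 were the stronger and the weaker summit of sup-6, 3514 and 3310 bp from the 5′ end of F58G1.7. The ncRNA genes F58G1.11 and F58G1.12 lie 36 and 37 bp from the weaker summit.

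T08G5.11 (WBGene00014511, chromosome V, 14028471 to 14028635, minus strand) had a signal value of 81.8 in the pooled list (rank 185), 29.5 in replicate 1 (rank 213) and 53.2 in replicate 2 (rank 282). These summits lay 56, 55 and 78 bp past the 3′ end. The peak itself was narrow, 148 bp against a median of 336 bp in the optimal list, and ended before it reached the gene. Replicate 1 had a weaker summit 18 bp from the 5′ end (rank 6541). An ncRNA gene on the other strand, T08G5.18, starts 46 bp from the summit.

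sup-39 (WBGene00006344, chromosome II, 6968394 to 6968558, minus strand) had a signal value of 59.4 in the pooled list (rank 411), 17.6 in replicate 1 (rank 807) and 44.0 in replicate 2 (rank 468). These summits lay 63, 21 and 64 bp past the 3′ end. Its peak was the narrowest of the 8 members, 88 bp, and did not overlap the gene. Near the 5′ end, weaker summits ranked 4567 in the pooled list (28 bp from the 5′ end), 2746 in replicate 1 (-22 bp) and 24033 in replicate 2 (24 bp). The pooled one is also the summit counted for mir-1831, whose bases lie inside sup-39. The 3 U1 genes thus shared a layout with the stronger summit past the 3′ end. sup-39 lies in an intron of C15F1.5, and its strongest summit falls in coding sequence of that gene and in the piRNA gene 21ur-14704, with the ncRNA gene C15F1.14 61 bp away, so it cannot be given to sup-39 alone.

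**Figure D2:**
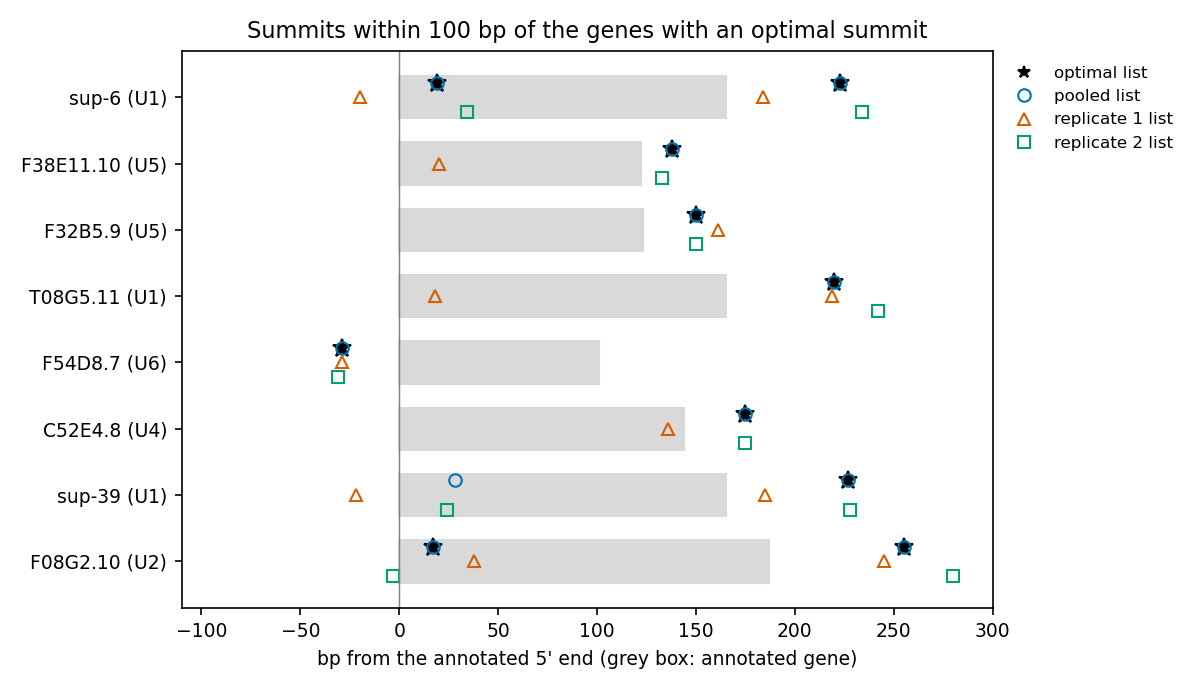
Position of every summit within 100 bp of the 8 members with an optimal summit, in bp from the annotated 5′ end along the gene's own strand, with the gene as a grey box and 1 symbol per peak list. Stars lie past the 3′ end in 7 members, before the 5′ end at F54D8.7, and also near the 5′ end inside sup-6 and F08G2.10.

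The remaining 10 U1 genes had no optimal summit. H27M09.6 (WBGene00194992) came nearest to the optimal list, with a pooled signal value of 35.1 (rank 1565), 338 in replicate 1 by rank, and 10044 in replicate 2. It was 1 of 3 members that entered when the strongest 1103 peaks of replicate 1 were used in place of the optimal list. T27E4.10 ranked 7218, 18080 and 6710 in the pooled, replicate 1 and replicate 2 lists. T27E4.12 and T27E4.22 overlap each other on the same strand and share 1 pooled summit (rank 16307) and 1 replicate 1 summit (rank 1847). C27H5.11 (WBGene00045091), the first U1 gene in genome order with no pooled summit, ranked 11425 in replicate 1 and had none in replicate 2. Over all 13 U1 genes the replicate 1 rank ran from 5 to 20401, with a median of 1847. The U1 genes thus ranged from among the strongest peaks of that list to its weaker part.

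The optimal summits of the U4 and U5 genes also lay past the 3′ end. C52E4.8 (U4, chrV:11980118-11980321, plus strand) is shown from the start of the gene to 60 bases past its end. It has 1 identical copy in the genome, T11F9.15 (chrV:11478292-11478351, plus strand), for which only the 60 bases past the end are shown, since the genes read the same. Capitals mark the U4 word GCTTTGC, found at a pair of places in U4, and the base of the optimal summit.
C52E4.8: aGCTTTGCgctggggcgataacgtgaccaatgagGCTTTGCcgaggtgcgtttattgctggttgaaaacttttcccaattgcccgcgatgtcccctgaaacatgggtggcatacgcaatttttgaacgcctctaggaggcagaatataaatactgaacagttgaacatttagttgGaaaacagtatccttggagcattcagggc
T11F9.15: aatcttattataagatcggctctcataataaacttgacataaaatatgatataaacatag
The marked summit base falls in the sequence that the copies do not share.

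F38E11.10 (WBGene00014366, chromosome IV, 9444642 to 9444763, plus strand) had a signal value of 183.4 in the pooled list (rank 21), 34.8 in replicate 1 (rank 138) and 149.6 in replicate 2 (rank 16). The summit lay 17 bp past the 3′ end in the pooled list and 12 bp past it in replicate 2. In replicate 1 it lay inside the gene, 20 bp from the 5′ end, and a further summit at 101 bp past the 3′ end (rank 1574) fell just outside the window. The identical gene F38E11.11 (WBGene00014367) ranked 3346 in the pooled list and 1270 in replicate 1, -13 and -8 bp from its 5′ end, and had no summit in replicate 2. The identical genes therefore differed in rank. In the pooled list their summits lay on opposite sides, while in replicate 1 both lay near the 5′ end. The summit of F38E11.10 also lies 11 bp from the 3′ end of hsp-12.3, a gene of the small heat shock protein family on the other strand, and 14 bp from the ncRNA gene F38E11.24.

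C52E4.8 (WBGene00014291, chromosome V, 11980118 to 11980261, plus strand) had a signal value of 77.2 in the pooled list (rank 225), 25.4 in replicate 1 (rank 312) and 53.8 in replicate 2 (rank 271). The summit lay 32 bp past the 3′ end in the pooled list and in replicate 2, and inside the gene, 136 bp from the 5′ end, in replicate 1. No other gene lay within 100 bp of the optimal summit. The identical T11F9.15 (WBGene00014517) had a summit in replicate 1 alone (rank 5120). The other 3 U4 genes, F10D2.13 (WBGene00045145) first among them, had none in any list.

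F32B5.9 (U5, WBGene00044927, chromosome I, 2688947 to 2689069, plus strand) had a signal value of 146.5 in the pooled list (rank 37), 44.3 in replicate 1 (rank 75) and 106.6 in replicate 2 (rank 38). These summits lay 28, 39 and 28 bp past the 3′ end. The gene lies in an intron of cpz-1, a cathepsin gene on the other strand, and the summit falls in coding sequence of cpz-1, 332 bp from the 5′ end of that gene. The lists carry no strand, so the summit cannot be given to either gene alone.

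Other U5 genes were lower. F42C5.12 ranked 5610, 5754 and 7824 in the pooled, replicate 1 and replicate 2 lists. ZK897.4, in an intron of unc-31, ranked 6614, 16482 and 7359. In the cluster of 4 U5 genes at ZK897 and F07C6 on chromosome IV, all 4 had a replicate 1 summit and 1 had a pooled one. The first U5 gene in genome order with no pooled summit, Y69A2AR.36 (WBGene00194996), had none in any list.

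Of the U6 genes 1 of 23 had an optimal summit (4.35%), against 1.55% of all annotated genes and 5% of U2 genes. The U6 gene with the summit, F54D8.7, lies on chromosome III from 5080798 to 5080898 on the minus strand. It is identical to Y17G9A.85 and T08B6.62, so only the flanks tell the copies apart. The 100 bases before each of these genes, and before K09B11.11, a member of the group of 14 identical U6 genes, are shown next, from chrIII:5080899-5080998, chrIV:4864736-4864835, chrIV:4885650-4885749 and chrIV:13435887-13435986, all on the minus strand. Capitals mark the word GNAACCC, in which N is any base, and the word TATATA.
F54D8.7: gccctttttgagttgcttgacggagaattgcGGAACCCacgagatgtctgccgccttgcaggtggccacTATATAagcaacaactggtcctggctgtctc
Y17G9A.85: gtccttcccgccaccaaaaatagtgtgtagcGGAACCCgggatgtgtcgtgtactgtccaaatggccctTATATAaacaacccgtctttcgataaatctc
T08B6.62: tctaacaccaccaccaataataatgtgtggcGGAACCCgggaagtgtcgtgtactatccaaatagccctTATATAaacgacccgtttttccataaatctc
K09B11.11: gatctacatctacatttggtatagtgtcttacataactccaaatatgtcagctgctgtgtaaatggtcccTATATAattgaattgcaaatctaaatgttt
F54D8.7 and its identical copies all held GNAACCC at position -69 and TATATA at position -31, counted back from the annotated 5′ end. K09B11.11 held TATATA at -30 and no GNAACCC.

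F54D8.7 (WBGene00195000) had a signal value of 80.7 in the pooled list (rank 194), 22.1 in replicate 1 (rank 434) and 55.1 in replicate 2 (rank 250). The summits lay at -29, -29 and -31 bp from the 5′ end, the closest match between replicates among the 8 members, and thus at the TATATA word. No other annotated gene lay within 100 bp. F54D8.7 was the only member with an optimal summit before its 5′ end. The identical Y17G9A.85 and T08B6.62 had no summit in any list, although they share the gene and both words. Among the 14 identical U6 genes, R07E5.16 ranked 8168 in the pooled list and 9012 in replicate 1, C28A5.7 had a summit in replicate 1, and 12 had none. The 6 copies in mam-3 had none. B0205.15 (WBGene00194999), the first U6 gene in genome order, had none either. Lists from a pulldown of RNA polymerase II do not measure RNA polymerase III, so they say nothing of the output of U6 genes.

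The U2 genes had the weakest optimal summits of the members. At F08G2.10 (WBGene00014311, chromosome II, 13829305 to 13829491, minus strand) the 2 summits had pooled signal values of 44.5 (rank 843) and 42.1 (rank 979), near the lowest value of the optimal list, 40.5. The stronger one lay 17 bp from the 5′ end, inside the gene, and the other 69 bp past the 3′ end. In replicate 1 the order was turned, with rank 724 at 59 bp past the 3′ end and rank 827 at 38 bp from the 5′ end. In replicate 2 the ranks were 1415 at 94 bp past the 3′ end and 1812 at -3 bp. Summits lay near both ends in every list, as at sup-6, and the 2 optimal peaks overlap each other. F08G2.10 is 1 of 7 identical U2 genes, of which 3 had a pooled summit and 4 had none. The others with one were R05D7.6 (rank 5008) and F56H6.16 (rank 29162). An ncRNA gene on the other strand, R05D7.8, covers F08G2.10. F11A5.14 and Y57G11C.35 ranked 643 and 1003 in replicate 1 and had no summit in the pooled list or replicate 2. Y47H9A.2 (WBGene00014577), the first U2 gene in genome order with no pooled summit, had none in any list.

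No SmY gene had a pooled summit. In replicate 1, smy-10 ranked 1607 and smy-12 ranked 22283, and smy-7 (WBGene00045205), the first in genome order, had none. Among untyped genes, M163.13 had a replicate 1 summit (rank 8032), mir-1831 the summit it shares with sup-39, and the other 14 had none, F35C11.9 (WBGene00189964) first among them. Of the untyped genes, 6 overlapped cyp-34A genes on the other strand.

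**Figure D3:**
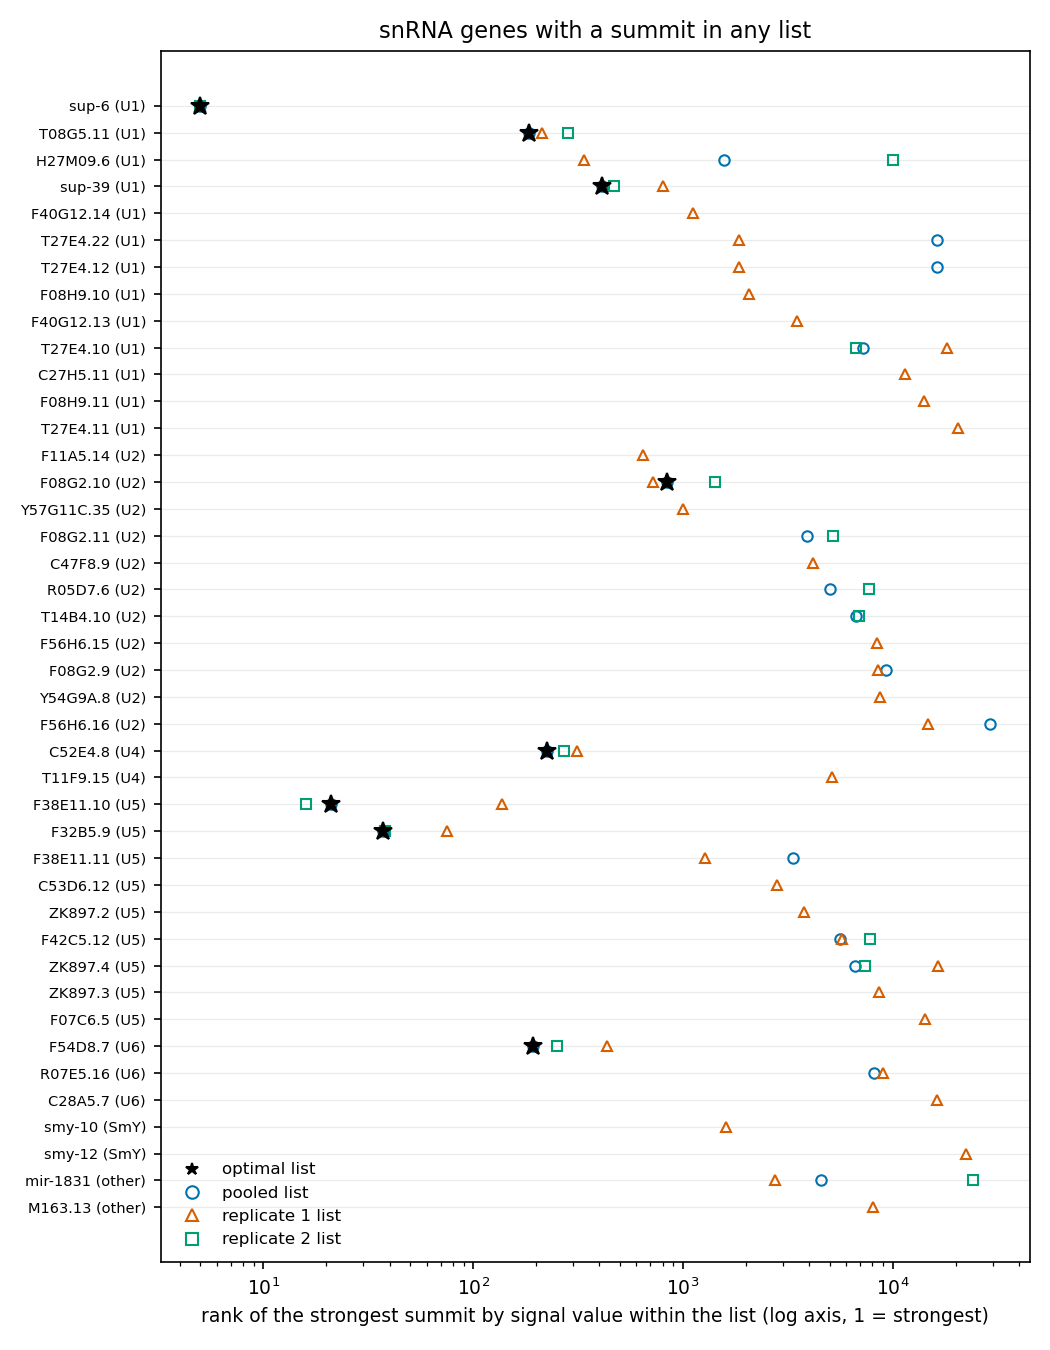
Rank of the strongest summit within 100 bp of each of the members with a summit in any list, on a log axis with 1 as the strongest, 1 symbol per peak list, sorted by type. The 8 members with stars rank between 5 and 1415 in every list, and most other members show only a replicate 1 symbol.

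Between replicate 1 and replicate 2 the strongest summits of the 8 members with an optimal summit lay 2 to 113 bp apart, with a median of 37 bp. Over all 13 members with a summit in both replicates the range was 2 to 124 bp and the median 39 bp. The widest gap among the 8 was at F38E11.10, where the replicates lay near opposite ends of the gene. Their ranks ran from 5 to 807 in replicate 1 and from 5 to 1415 in replicate 2. The 14 members with a pooled summit but no optimal one ranked 1565 to 29162 in the pooled list. The 26 members with a summit in replicate 1 and not in replicate 2 had replicate 1 ranks from 643 to 22283, with a median of 6576.

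Of the 10 optimal summits at members, 7 lay past the annotated 3′ end, 2 inside the gene and 1 before it. Among the 7, those of sup-6, sup-39 and F32B5.9 fell in coding sequence of a host gene. That of F38E11.10 lay 11 bp from hsp-12.3. Only that of C52E4.8 had no other annotated gene within 100 bp, so most of the 7 cannot be given to the member alone. The share past the 3′ end was 70.0%. It was 41.9% of 31 for small nucleolar RNA genes, 33.3% of 12 for SL2 RNA genes, 16.7% of 6 for tRNA genes and 10% of 10 for microRNA genes. Over all annotated genes it was 13.4% of 983. Of these 983 pairs of gene and summit, 786 were of protein-coding genes. Their median length was 2026 bp, against 121 bp for members. The window past the 3′ end is 100 bp at any gene length, so the 13.4% is not matched for length. Over the relaxed lists the members' share was 50% in the pooled list, 43.5% in replicate 1 and 65.0% in replicate 2, counting a summit for each member it touches. In the same order the shares were 38.5%, 47.1% and 38.5% for SL2 RNA genes, which in replicate 1 is above the members. They were 32.1%, 27.9% and 27.3% for small nucleolar RNA genes and 25.4%, 19.6% and 25.4% for microRNA genes. For tRNA genes they were 16.5%, 20.1% and 17.4%, and for all annotated genes 6.31%, 6.78% and 6.07%. The members' shares rest on few summits, and no test was made of them.

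Repeated sequence limits where reads can be placed, and the members' own sequence was less distinct than their flanks. The sources used here give neither read length nor the handling of reads with several matches, so windows of 36 and 100 bases were both examined. The median share of 36-base windows that occur once in the genome, on either strand, was 27.7% within U1 genes, 0% within U2 and U6 genes, 11.01% within U4 genes and 39.5% within U5 genes, against 100% within SmY genes. In the 100 bp on each side the medians were 100% for U1, U4, U5 and SmY genes, 82.7% for U2 and 85.4% for U6 genes. With 100-base windows the median within the gene was 65.2% for U1, 100% for U5, 26.7% for U4 and 0% for U2 and U6 genes. All 8 optimal summits outside the gene lay in bases whose 36-base windows were all unique. Of the 2 inside, that of sup-6 did too, while none of the windows at the F08G2.10 summit was unique, so a 36-base read there cannot be assigned to 1 of the 7 identical genes. Of the 100-base windows at that summit 48% were unique. In replicate 1, 16 of 44 summits lay inside a member. Of these 16, 7 had no unique window and 1 had only unique windows, with a median of 19.4% unique windows. In replicate 2, 4 of 19 lay inside, of which 3 had only unique windows and none lacked them. Of the summits outside members, 23 of 28 in replicate 1 and 14 of 15 in replicate 2 had only unique windows. The part of repeats in the position of the summits, and in the difference between replicates, was not tested. Among the 10 SmY genes, which had no pooled summit, the share within the gene ran from 57.1% to 100%.

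**Figure D4:**
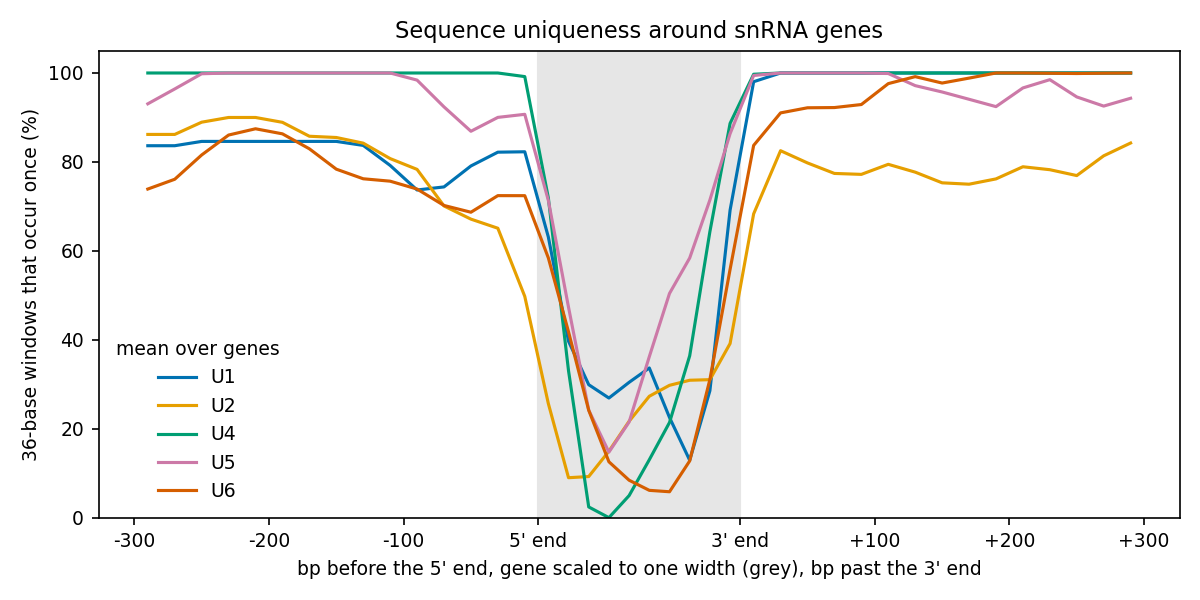
Mean share (percent, from 0) of the 36-base windows covering a base that occur once in the genome, from 300 bp before the 5′ end to 300 bp past the 3′ end, with each gene scaled to the same width (grey), for 5 snRNA types. All types drop inside the gene and rise again at the 3′ end, where U1, U4 and U5 return to near 100%.

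Members with and without summits had similar medians of unique 36-base windows. Over the gene and 100 bp on each side, the median share of unique 36-base windows was 69.7% (36.6 to 82.3) in the 8 members with an optimal summit and 67.6% (0 to 100) in the 91 without. For pooled summits the medians were 66.7% in 22 members and 70.5% in 77. With 100-base windows the medians were lower with a summit than without. They were 90.04% and 96.18% for optimal summits, and 90.04% and 96.21% for pooled ones. The types were not separated in these medians. Of the 32 members with an identical copy, 4 had an optimal summit, and of the 67 with none, 4 did. Of the 60 members that overlap a protein-coding gene 3 had one, and of the other 39, 5 did. These 60 members lay in or across 48 protein-coding genes. At 3 of them, F58G1.7, C15F1.5 and cpz-1, every optimal summit in the host was one counted for the member. Optimal summits away from the member lay in 2 hosts, C33A12.3, which holds smy-1, and Y57G11C.5, which holds Y57G11C.35. Members often lay near each other: 58 of 99 fell into 21 clusters with gaps of at most 10000 bp. Of the clustered members 2, sup-39 and F08G2.10, had an optimal summit, and of the 41 that lay alone, 6 did. The only other member in the cluster of sup-39 is mir-1831, which lies inside sup-39.

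The sequence before the genes was compared next, because the words marked in the U6 genes recur there. The 100 bases before sup-6 (chrII:12944968-12945067, minus strand), sup-39 (chrII:6968559-6968658, minus), T08G5.11 (chrV:14028636-14028735, minus), F38E11.10 (chrIV:9444542-9444641, plus), C52E4.8 (chrV:11980018-11980117, plus), F08G2.10 (chrII:13829492-13829591, minus) and smy-5 (chrV:14096466-14096565, minus), an SmY gene without a summit, are shown, with the same words in capitals.
sup-6: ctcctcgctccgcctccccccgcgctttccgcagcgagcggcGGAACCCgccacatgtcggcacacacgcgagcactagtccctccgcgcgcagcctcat
sup-39: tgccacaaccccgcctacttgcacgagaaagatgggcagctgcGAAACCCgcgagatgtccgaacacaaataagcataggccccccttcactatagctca
T08G5.11: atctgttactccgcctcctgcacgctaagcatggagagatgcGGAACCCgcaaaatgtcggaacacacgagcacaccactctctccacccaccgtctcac
F38E11.10: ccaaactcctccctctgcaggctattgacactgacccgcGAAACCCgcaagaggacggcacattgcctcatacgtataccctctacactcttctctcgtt
C52E4.8: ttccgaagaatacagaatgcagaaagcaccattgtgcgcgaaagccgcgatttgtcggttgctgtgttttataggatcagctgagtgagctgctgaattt
F08G2.10: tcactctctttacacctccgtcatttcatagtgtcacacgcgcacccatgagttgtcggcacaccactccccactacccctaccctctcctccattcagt
smy-5: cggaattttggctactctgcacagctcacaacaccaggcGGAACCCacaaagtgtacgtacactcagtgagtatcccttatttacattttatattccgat
The word lies in nearly the same place before the U1, U5 and SmY genes shown. In this exact form it is missing before C52E4.8 and F08G2.10, and looser matches were not searched for.

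On the gene's own strand GNAACCC lay in the 100 bases before 9 of 13 U1, 11 of 12 U5, 8 of 10 SmY, 3 of 5 U4, 5 of 23 U6, 0 of 20 U2 and 2 of 16 untyped genes, in all 38 of 99 (38.4%). Over 46916 annotated genes with 100 bases before them it lay in 1.00%, and in 1.78% on either strand. In the members its presence on either strand gave the same 38. The median position of its first base was -58 in U1, -60 in U5, -59 in SmY and -69 in U6 genes. TATATA, which reads the same on both strands, lay before 16 of 23 U6 genes, at a median position of -30.5, and before 20 members in all (20.2%), against 5.07% of all genes. No U1, U4 or U5 gene held it. Of the 38 members with GNAACCC, 6 had an optimal and 13 a pooled summit. Of the 61 without it, 2 and 9 did. SmY genes mostly held the word and had no pooled summit. GNAACCC and TATATA were both held by 4 U6 genes and 1 SmY gene, and of these 5 F54D8.7 alone had a summit in any list. Both words were chosen after the members' sequences had been seen, so their excess over all genes is no independent evidence. The same limit holds for the split of members by word. Only exact matches were counted. A match is a description of letters and does not show that a factor binds there.

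Genes of the proteins that build and use snRNAs were read in the same way. Of 49 listed genes 47 were found in the annotation under the listed symbols, and 2 of these lay within 100 bp of an optimal summit (4.26%), as did 2.73% of all protein-coding genes. Both encode Lsm proteins, which form rings that bind U6 RNA or messages marked for decay. lsm-3 (WBGene00003077) had a pooled signal value of 57.4 (rank 439) and lsm-7 (WBGene00003081) of 55.04 (rank 483). Pooled summits lay at 31 of 47 genes (66.0%), against 34.9% of protein-coding genes. By group these were 4 of 7 Sm protein genes, 6 of 8 Lsm genes, all 3 genes of U1 and U2 proteins, of which the neighbours rnp-2 and rnp-3 share 1 summit (rank 23158), all 4 of the U2 particle and its auxiliary factor, 4 of 6 of the U5 and U4/U6 particles, smn-1, 2 of 7 of the snRNA activating protein complex and 7 of 11 Integrator genes. Optimal summits lay at 0 of 7 genes of the snRNA activating protein complex and 0 of 11 Integrator genes. With a share of 2.73% over all protein-coding genes, counts from so few genes cannot be told from that share.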

How the data were processed

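Peak lists of AMA-1 ChIP-seq from 2 biological replicates, numbered by the labels, were used on build ce11; the ce10 lists of the same data were not placed. The aligner and the peak caller were not given in the sources used here. Relaxed lists came from single or pooled replicates set against a control, and the optimal list from comparing them, per the deposited readme files; the control library was not used here. The deposited signal value is a score that the authors' caller gave each peak. The authors' q-values were deposited as −log10 and are tied at 4.05 for every optimal peak and do not rank them. The other deposited column used, the offset from the peak start, gave the summit. Depth is unknown, and every count covers genes or peaks only.

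Members, word lists and the pathway list were chosen with earlier results of these data known. Summits within 100 bp of a gene were counted, for members and for every annotated gene. The U1 word first chosen matched no member, so ACTTACCTG within the first 20 bases was used after the sequences had been seen. Identity of at least 85% over 80% of the length was taken against genes typed by words, since the annotation types none but SmY. The upstream words were also chosen after the sequences had been seen. Named members are those with an optimal summit and, per type, the strongest in the pooled list and the first in genome order without a pooled summit, with sup-6, F58G1.7 and pathway genes with an optimal summit; other members named were picked with their values in view. Alternatives were other windows, lists, single replicates and overlap of intervals. Sequences are from the RefSeq genome of WBcel235. Some gene sequences are not reported here. Placement was checked on simulated summits. Tools were Python 3.11.15, NumPy 2.4.6, edlib 1.3.9 and matplotlib 3.10.9.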

Additional observations from a re-analysis of the deposited data

How the results depend on the processing

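When only summits inside the gene were counted, 2 of 8 members kept an optimal summit and 10 of 22 a pooled one. A summit in both replicates was kept by 1 of 13 members, and 2 of 10 optimal summits remained. With 50 bp, 6 optimal summits and 6 members remained; with 500 bp, 10 members. Only 4 members, F32B5.9, sup-6, F54D8.7 and C52E4.8, had an optimal summit with no gene but members and hosts near. Of these, the strongest summits of F32B5.9 and sup-6 fell in coding sequence of their hosts. With the strongest 1103 peaks of 1 replicate, the count was 7 without replicate 1 and 11 without replicate 2, with 8 and 13 summits, of which 75.0% and 53.8% lay past the 3′ end. F08G2.10 was lost without replicate 1, and H27M09.6, F11A5.14 and Y57G11C.35 entered without replicate 2. The pooled count of 22 was 16 without replicate 1 and 39 without replicate 2, and 13 with only the 5554 pooled peaks that share the top −log10 q. With the strongest 5000 peaks of each replicate, 8 members had a summit in both. The counts of 16 and 39 are those of the full replicate lists, 16.2% and 39.4% of members against 18.8% and 21.9% of all genes. Under the other settings the share over all annotated genes was not computed, so those counts cannot be set against it. The share past the 3′ end was 50% with 50 bp, 72.7% with 500 bp and 54.2% in the pooled list, each summit counted once. The alternatives for the number of summits and for this share were chosen after seeing the data. Taking the nearest summit changed the pooled rank of sup-6 from 5 to 87 and of sup-39 from 411 to 4567. The causes were not tested. No paired analysis was possible because the labels give only 1 group.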
